A study of Mus musculus with 36 samples.

Results

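The neutrophil granule genes described here were Mpo, Elane, Prtn3, Ctsg, Ngp, Camp, Ltf, S100a8, S100a9 and Chi3l3, taken by gene symbol from the deposited table of liver expression. All 10 symbols were found among the 21889 genes of the table. All 10 also passed the filter on low values, an age mean of at least 1 FPKM (fragments per kilobase of transcript, relative to the mapped fragments of the library) in at least 1 age, which 11149 genes passed. No member had an age mean of 1 FPKM at Day 45 or Day 60, so each passed through an earlier age. The series followed the liver of C57BL/6 mice (C57BL/6J in the study's methods) from before birth to adulthood by RNA sequencing, with 36 mice at 12 ages and 3 mice per age. The ages were Day -2 (before birth), Day 0 (birth, before suckling), then Days 1, 3 and 5, then Days 10, 15 and 20, and lastly Days 25, 30, 45 and 60, and pups kept beyond Day 20 had been weaned before Day 25. The study's methods state that only males were used and that they came from several litters. The labels name no altered gene and no agent in any group, and each age was compared with its neighbours and with Day 60, the adult age. The tissue was whole liver with the blood cells in it, so fewer neutrophils and less of a transcript per neutrophil cannot be told apart in these data. The p-values rest on the spread between mice within ages. For each gene that spread was pooled over all 12 ages and drawn towards that of other genes, so mice of 1 age can change the calls at another.

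Neutrophils are short-lived phagocytes that carry ready-made antimicrobial proteins in granules, and the granules form in order as the cell matures. Promyelocytes make the azurophil granules, which hold myeloperoxidase and serine proteases. Myelocytes and metamyelocytes then make the specific granules, which hold lactoferrin, cathelicidin and related proteins, and the transcripts of the earlier granules are shut off as the later ones appear. The fetal liver is the main site of blood formation before birth, and the bone marrow takes over around and after birth, while the liver turns to metabolism. Transcripts of granule proteins are found mainly in cells that are still maturing, so they are commonly read as a sign of neutrophil formation in a tissue.

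The members fall into 3 roles. Mpo (myeloperoxidase, which makes hypochlorous acid), Elane (neutrophil elastase), Prtn3 (proteinase 3) and Ctsg (cathepsin G) encode azurophil granule enzymes. Ngp (neutrophilic granule protein), Camp (the cathelicidin precursor) and Ltf (lactoferrin, which binds iron) encode specific granule proteins. S100a8 and S100a9 encode the subunits of calprotectin, a calcium-binding and metal-binding protein of the neutrophil cytosol, and Chi3l3 (Ym1) encodes a secreted chitinase-like protein of mouse myeloid cells. All 10 are annotated as protein-coding in the mm9 build that the table was made on. Mpo lies at chr11:87607083-87617915 on the plus strand with up to 14 exons, and Ctsg at chr14:56718718-56721411 on the minus strand with 5. Elane, at chr10:79349057-79350961, and Prtn3, at chr10:79337221-79345919, lie 3137 bases apart on the plus strand of chromosome 10. Ngp (chr9:110322254-110325514, plus), Camp (chr9:109749889-109751970, minus) and Ltf (chr9:110921796-110945270, plus) all lie on chromosome 9, Ngp and Camp 570283 bases apart and Ngp and Ltf 596281 bases apart. S100a8 (chr3:90472993-90473956, plus) and S100a9 (chr3:90496554-90499643, minus) are neighbours at 22597 bases on chromosome 3, and Chi3l3 (chr3:105950472-106022425, minus) is on the same chromosome.

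Factors of granulopoiesis are known to bind promoters of such genes. The upstream sequences shown are those of 5 members, the azurophil genes and, of the specific granule genes, Ngp alone. Each is the 250 bases before the start of the gene as RefSeq gives it on GRCm38.p6, a different build from that of the expression values, read 5′ to 3′ on the gene's strand. The coordinates are chr11:87793534-87793783 (plus) for Mpo, chr10:79886062-79886311 (plus) for Elane, chr10:79879417-79879666 (plus) for Prtn3, chr14:56102575-56102824 (minus) for Ctsg and chr9:110419558-110419807 (plus) for Ngp. Capitals mark matches, on either strand, to 3 sets of letters chosen for known factors: GAGGAA for PU.1, TTGCNNAA for C/EBP factors and TGTGGT for RUNX factors.
Mpo: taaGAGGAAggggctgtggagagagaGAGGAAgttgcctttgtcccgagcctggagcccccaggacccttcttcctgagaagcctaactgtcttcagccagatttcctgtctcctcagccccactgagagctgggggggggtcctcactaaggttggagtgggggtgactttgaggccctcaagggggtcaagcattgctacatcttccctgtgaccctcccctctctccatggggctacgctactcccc
Elane: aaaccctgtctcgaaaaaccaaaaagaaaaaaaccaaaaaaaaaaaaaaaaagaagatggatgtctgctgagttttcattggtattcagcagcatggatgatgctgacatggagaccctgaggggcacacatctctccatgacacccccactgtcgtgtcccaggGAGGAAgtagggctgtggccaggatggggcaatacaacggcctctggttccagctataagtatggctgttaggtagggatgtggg
Prtn3: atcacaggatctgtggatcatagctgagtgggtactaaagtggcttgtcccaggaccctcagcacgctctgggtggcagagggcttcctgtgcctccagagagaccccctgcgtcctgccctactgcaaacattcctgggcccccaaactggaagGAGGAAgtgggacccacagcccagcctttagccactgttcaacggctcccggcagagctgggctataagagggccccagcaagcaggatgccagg
Ctsg: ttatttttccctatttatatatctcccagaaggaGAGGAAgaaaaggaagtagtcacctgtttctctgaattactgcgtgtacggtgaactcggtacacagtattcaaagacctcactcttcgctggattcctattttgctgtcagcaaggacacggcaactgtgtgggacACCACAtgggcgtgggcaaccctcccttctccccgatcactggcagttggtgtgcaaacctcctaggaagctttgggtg
Ngp: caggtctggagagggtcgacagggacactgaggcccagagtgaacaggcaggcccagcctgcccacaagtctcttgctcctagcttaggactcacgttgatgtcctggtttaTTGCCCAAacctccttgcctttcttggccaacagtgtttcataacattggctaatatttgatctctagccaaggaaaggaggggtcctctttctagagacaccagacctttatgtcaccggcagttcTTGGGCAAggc

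GAGGAA was found in 6 of the 10 members against 23.3% of 32817 RefSeq promoters of the same length. The 6 were the 4 azurophil genes, where it stood on the plus strand, and Ltf and S100a8. In Mpo it began 247 and 224 bases before the start, in Elane 85 bases, in Prtn3 95 bases and in Ctsg 216 bases before it. TTGCNNAA was found in Ngp, with 1 match on each strand, in Ltf and in S100a9, which is 3 of 10 members against 9.57% of promoters. TGTGGT was found in Ctsg and S100a9, 2 of 10 members against 14% of promoters. No match overlapped another, and Camp and Chi3l3 (Chil3 in RefSeq) held none of the 3. Camp and Ltf ran close to Ngp over the 12 age means of log2(FPKM + 1) (Pearson r = 0.9985 and 0.9956). Camp nevertheless held no match, while Ltf held both GAGGAA and TTGCNNAA. All of these are letter matches in a short window and describe the sequence only. Their relation to the course with age was not tested.

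Some libraries stood apart from the rest in ways that touch the values below. The low values of the table were read as steps of whole fragments, and 80.6% of the low values of 455 genes were within 0.1 of a whole fragment. The steps were fitted to these same values, so that share is not separate evidence for them. On that estimate the depth of each library was 0.895 to 1.12 times the median depth. Globin transcripts made up 36.2 to 43.1% of summed FPKM at Day -2, 16.3 to 19.8% at Day 0 and 6.12 to 8.34% at Day 1. FPKM is relative to the whole library, so the birth step is also given with the globin genes left out of the scaling. The skeletal muscle markers summed to 1062 FPKM in Day 0 replicate 1 and to at most 71.4 FPKM in every other library. The exocrine pancreas markers summed to 22523 FPKM in Day 60 replicate 1 and to at most 7791 FPKM elsewhere. Hepatocyte markers were expressed throughout, but as a list they were far lower before birth. Over the 6 genes, the median percentage of the highest age mean was 10.8% at Day -2, 45.5% at Day 0 and 66.5% at Day 60. Alb (albumin) measured 3272 ± 518 FPKM in the Day -2 mice and averaged 29902 FPKM in the Day 60 mice.

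All 10 members were high in the perinatal liver and nearly absent from the adult liver. In FPKM as deposited each member had its highest age mean at Day 0, as did 5.79% of the tested genes. With libraries scaled to a common sum without the globin genes the log2 difference from Day -2 to Day 0 turned negative for Mpo (-0.22), Prtn3 (-0.20) and Ctsg (-0.22), so the Day 0 peak of these 3 depends on the scaling. Summed over the 10 members, FPKM was 1905, 3619 and 3076 in the 3 mice of Day -2 (replicates 1, 2 and 3, an order used throughout) and 4391, 4296 and 3944 at Day 0. By Day 5 it was 2004, 1901 and 2382, by Day 10 it was 301, 680.3 and 690.4, by Day 15 it was 100.2, 34.2 and 28.8, and at Day 60 it was 2.67, 1.41 and 2.84. At Day 0 the members held 0.911 to 1.02% of all summed FPKM in a mouse. The plot of FPKM by mouse shows the same course in the 3 roles.

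**Figure D1:**
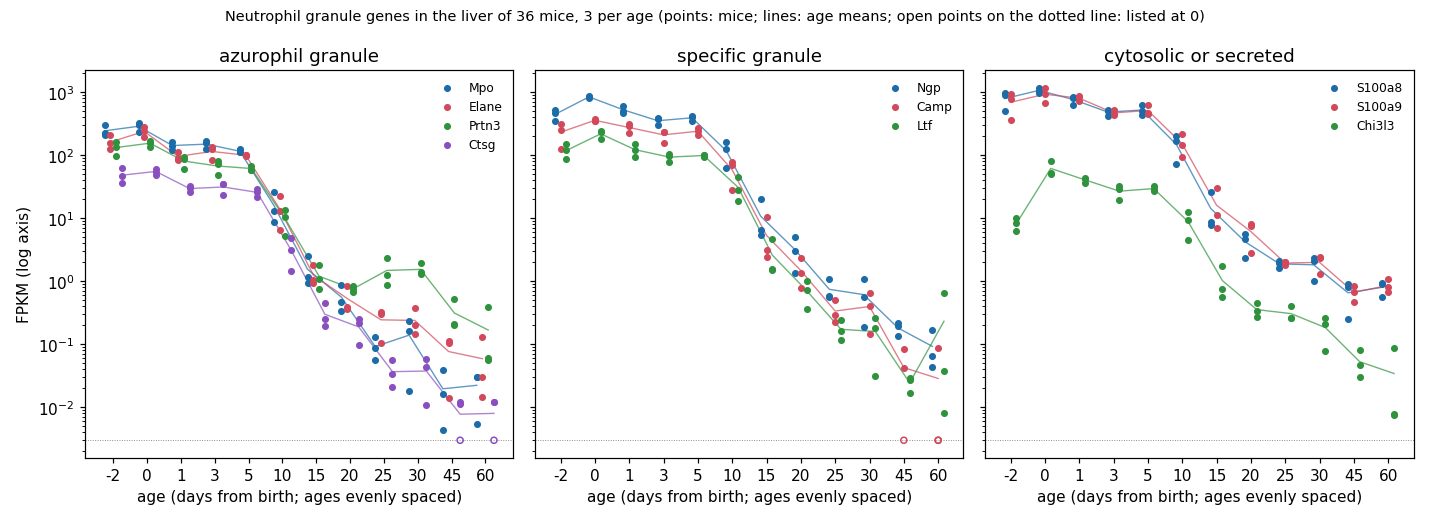
FPKM on a log axis against age in days from birth (ages evenly spaced), with a panel for each role; points are the 3 mice of an age, lines join the age means, and open points on the dotted line are mice in which the gene was listed at 0. All members but Chi3l3, which starts at 6.30 to 10.0 FPKM at Day -2, are high from Day -2 to Day 5, and all 10 fall steeply from Day 5 to Day 15, while Prtn3 stays near 1.5 FPKM at Days 25 and 30.

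Tests were made with limma on log2(FPKM + 1) over all tested genes, with Benjamini-Hochberg adjustment within each comparison and a threshold of 0.05, and differences on this scale understate the change of low genes. All 10 members differed from Day 60 in at least 1 age, where 90.7% of tested genes did so. At Day -2 all 10 were higher than at Day 60, where 56.4% of tested genes were higher, and the median log2 difference was 7.48 over the members and 0.56 over all tested genes. The study's own age groups gave the same counts. All 10 were higher in Days -2 to 5 than in Days 25 to 60 (background 70.2% of genes higher, medians 7.11 and 0.54), and all 10 were higher in Days -2 to 5 than in Days 10 to 20 (background 61.2%, medians 4.80 and 0.35). All 10 were also higher in Days 10 to 20 than in Days 25 to 60 (background 44.9%, medians 2.07 and 0.19). These comparisons share mice, and all comparisons with Day 60 share its 3 mice, so the counts are not separate evidence.

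Age by age, the difference from Day 60 was called for fewer members with time. All 10 members were higher than at Day 60 at every age from Day -2 to Day 10, where the share of tested genes that were higher was 43.6% for Day 0, 53.4% for Day 1, 55.7% for Day 3, 56.9% for Day 5 and 35.3% for Day 10. At Day 15 the count was 9 (18.4% of genes higher) and Ctsg was the exception. At Day 20 it was 4, namely Ngp, Camp, S100a8 and S100a9 (8.93%). At Day 25 (4.18%) and Day 30 (1.77%) the count was 1, which was Prtn3 at both ages. At Day 45 (0.233% of genes in either direction) limma called 0 members, none of them at an unadjusted p under 0.05 either. Over the 11 ages, 75 of 110 pairs of member and age differed from Day 60, against 39.6% of such pairs over all tested genes.

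The azurophil genes were at 68.1 to 87.1% of their Day 0 mean before birth. Mpo measured 223, 296 and 212 FPKM at Day -2 and 305, 231 and 326 FPKM at Day 0, and the mice of these ages overlapped. It then measured 141, 164 and 121 FPKM at Day 1 and 123, 112 and 111 FPKM at Day 5. By Day 10 Mpo was at 8.67, 26.3 and 13.1 FPKM and by Day 15 at 2.53, 0.941 and 1.16 FPKM. All 3 Day 10 mice lay below every Day 5 mouse, and all 3 Day 15 mice below every Day 10 mouse. At Day 60 the 3 mice measured 0.0308, 0.0054 and 0.0308 FPKM. Mpo was higher at Day -2 than at Day 60 by 7.89 ± 0.24 (SE) on the log2 scale (limma adjusted p = 8.48e-22), with all 3 Day -2 mice above every Day 60 mouse. A noncoding transcript on the opposite strand, Gm11505, overlaps Mpo exons, and the library kit did not keep strand, so reads of the overlap cannot be assigned to 1 of them.

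Elane, the elastase that cleaves matrix and bacterial proteins, measured 123, 207 and 155 FPKM at Day -2 and 243, 194 and 277 FPKM at Day 0. At Day 1 it was at 83.3, 113 and 91.0 FPKM, below every Day 0 mouse. The 3 mice of Day 5 were close to each other at 95.9, 101 and 102 FPKM. Those of Day 10 measured 6.53, 22.8 and 13.2 FPKM and those of Day 15 measured 1.80, 1.03 and 0.924 FPKM. At Day 60 Elane was at 0.133, 0.0300 and 0.0145 FPKM, an estimated 9.0, 2.0 and 1.0 fragments. The low values thus rest on few fragments.

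Prtn3, whose protease is also the antigen of some vasculitis autoantibodies, measured 97.1, 164 and 136 FPKM at Day -2 and 159, 137 and 171 FPKM at Day 0. It measured 58.1, 59.1 and 67.1 FPKM at Day 5 and 5.21, 13.5 and 10.5 FPKM at Day 10. The ratio of Prtn3 to its neighbour Elane stayed between 0.55 and 0.873 in each mouse at Days -2, 0, 3 and 5, and it was 0.733, 0.773 and 1.03 at Day 1. Ctsg was the lowest azurophil gene, at 36.1, 61.8 and 46.5 FPKM at Day -2 and 49.3, 55.0 and 61.5 FPKM at Day 0. It fell through 21.5, 29.1 and 26.5 FPKM at Day 5 to 1.44, 4.81 and 3.19 FPKM at Day 10, and it was at 0, 0.0121 and 0.0119 FPKM at Day 60, an estimated 0.0, 0.9 and 0.9 fragments. Ctsg at Day 60 was thus at the limit of 1 fragment.

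The specific granule genes stood lower against their peak at Day -2, at 52.4 to 64.7% of their Day 0 mean. Ngp, a small cystatin-like granule protein and the highest of the 3, measured 344, 519 and 459.7 FPKM at Day -2 and 884, 828 and 813 FPKM at Day 0. All 3 Day 0 mice lay above every Day -2 mouse. Ngp was at 494, 605 and 474 FPKM at Day 1, 399, 351 and 425 FPKM at Day 5, and 63.1, 161 and 126 FPKM at Day 10. It was at 20.4, 6.45 and 5.47 FPKM at Day 15 and 5.09, 3.04 and 1.36 FPKM at Day 20. At Day 60 it was at 0.0657, 0.0442 and 0.168 FPKM, an estimated 6.2, 4.1 and 15.5 fragments.

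Camp, the precursor of an antimicrobial peptide, measured 126, 315 and 253 FPKM at Day -2 and 374, 349 and 349.9 FPKM at Day 0, with the 3 Day 0 mice above every Day -2 mouse. It measured 207, 242 and 271 FPKM at Day 5, 27.7, 77.6 and 70.2 FPKM at Day 10 and 10.4, 2.45 and 3.15 FPKM at Day 15. At Day 60 it was listed at 0 in replicates 1 and 2 and at 0.0860 FPKM in replicate 3. Ltf measured 85.5, 149.7 and 121 FPKM at Day -2 and 178, 239 and 237 FPKM at Day 0, again with no overlap between the ages. It measured 101, 101 and 94.5 FPKM at Day 5, 19.1, 45.7 and 28.2 FPKM at Day 10 and 4.72, 1.57 and 1.49 FPKM at Day 15. At Day 60 Ltf measured 0.651, 0.00827 and 0.0373 FPKM. The mouse at 0.651 FPKM was replicate 1, the library with 22523 FPKM of pancreas markers, and whether that RNA carried the Ltf was not tested.

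S100a8 and S100a9 had the highest age means of the members at all 12 ages, compared as FPKM, a level per length. S100a8 measured 506, 968 and 896 FPKM at Day -2 and 1169, 1054 and 982 FPKM at Day 0. S100a9 measured 357, 928 and 786 FPKM at Day -2 and 949, 1158 and 674 FPKM at Day 0, and its ages overlapped while those of S100a8 did not. By Day 10 S100a8 was at 72.0, 171 and 201 FPKM and S100a9 at 92.9, 145 and 215 FPKM. At Day 60 S100a8 was still at 0.916, 0.565 and 0.928 FPKM and S100a9 at 0.808, 0.677 and 1.09 FPKM, above the azurophil and specific granule genes in age mean. The ratio of S100a8 to S100a9 had a median of 0.980 over the 36 mice and ranged from 0.531 to 1.46. The levels per length of both calprotectin subunits thus stayed close to each other from before birth to the adult.

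Among the 10 members, Chi3l3 followed a course of its own before birth. It measured 6.30, 8.45 and 10.0 FPKM at Day -2 and 81.6, 50.7 and 52.8 FPKM at Day 0, so the lowest Day 0 mouse was far above the highest Day -2 mouse. Its Day -2 mean was 13.4% of its Day 0 mean, against 52.4 to 87.1% for the other 9 members. From Day 0 to Day 10 it ran beside Ngp. The ratio of Chi3l3 to Ngp was 0.0163 to 0.0218 in the mice of Day -2 and 0.0612 to 0.0922 in those of Day 0, and it lay between 0.0629 and 0.0903 in those of Days 1, 3, 5 and 10. It was higher later, at 0.0903 to 0.199 at Day 20 and 0.236 to 0.704 at Day 25, where both genes were low. Its paralog Chi3l4, which shares exon sequence with the annotated Chi3l3 gene on the same strand, had age means of 0.787 FPKM at Day -2 and 6.49 FPKM at Day 0, so reads of the pair may be split between them and the values of both are uncertain. Chi3l4 was higher at Day 0 than at Day -2 by 2.00 ± 0.25 (SE) on the log2 scale (limma adjusted p = 2.02e-07). Retnlg, a neutrophil gene outside the members that is given below, also rose steeply at birth.

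From Day -2 to Day 0 3 members rose, where 13.1% of tested genes were higher and 41.4% lower, and the median of all tested genes was -0.29 on the log2 scale. Chi3l3 rose by 2.75 ± 0.24 (SE) on the log2 scale (limma adjusted p = 2.62e-10), Ngp by 0.95 ± 0.33 (adjusted p = 0.0185) and Ltf by 0.89 ± 0.27 (adjusted p = 0.00772). For each of these 3 the mice of Day 0, which are other animals than those of Day -2, all lay above every Day -2 mouse. No member fell. Elane (0.57 ± 0.26, adjusted p = 0.0608) and Camp (0.73 ± 0.35, adjusted p = 0.0801) missed the threshold, and the other 5 were between 0.22 and 0.50.

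The birth step depended on how the libraries were scaled and on single mice. After scaling each library to the same upper quartile (20% of genes higher, 26.1% lower, median -0.08) 5 members rose, Elane and Camp in addition. With libraries scaled to a common sum without the globin genes (7.39% higher, 65.3% lower, median -0.66) Chi3l3 alone rose. Without Day -2 replicate 1, which was the lowest of its age for 9 of 10 members, Chi3l3 was again the only call, and without Day -2 replicate 2 or without Day 10 replicate 1 there were 5 calls. Leaving out the Day 10 mouse did not move the log2 differences of the birth step, and it acted through the spread pooled over ages. Chi3l3 thus rose in each of these settings, and the rises of Ngp and Ltf did not hold in all of them. With the library richest in muscle and the one richest in pancreas left out together, Ngp was at an adjusted p of 0.0521 and 2 members rose.

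**Figure D2:**
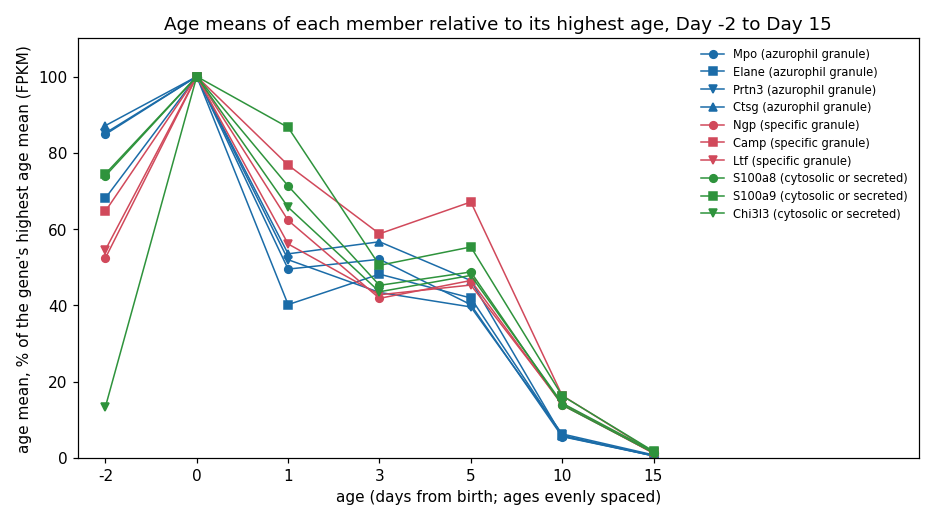
Age mean of each member as a percentage of its own highest age mean, on a linear axis, against age in days from birth up to Day 15 (ages evenly spaced), with colour for the role. In FPKM as deposited every member peaks at Day 0, which for Mpo, Prtn3 and Ctsg turns with the globin-free scaling; Chi3l3 starts lowest at 13.4% on Day -2, and at Day 10 the azurophil genes are at 5.58 to 6.28% while the other members are at 13.8 to 16.4%.

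From Day 0 to Day 1, the first day of suckling, 5 members fell, where 7.88% of tested genes were lower and 23.7% higher. The 5 were the 4 azurophil genes and Ltf. Elane fell most, by 1.30 on the log2 scale (SE 0.26, limma adjusted p = 0.000345), followed by Mpo at -1.01 ± 0.24 (adjusted p = 0.00242), Prtn3 at -0.95 ± 0.25 (adjusted p = 0.00563) and Ctsg at -0.88 ± 0.20 (adjusted p = 0.00193). Ltf was at -0.84 ± 0.27 (adjusted p = 0.0205). The other specific and the cytosolic or secreted members did not pass the test, with Ngp at -0.69, Chi3l3 at -0.56, S100a8 at -0.50, Camp at -0.39 and S100a9 at -0.18. Whether the azurophil genes fell more than the rest was not tested. With a common upper quartile 14.7% of genes were higher and 12% lower in this step, and with the globin-free sum 16.1% and 9.02%, and in both 6 members fell, Chi3l3 in addition. With a pseudocount of 0.1 Mpo, Elane and Ctsg were the 3 members called, and without Day 0 replicate 2, Day 0 replicate 3, Day 1 replicate 1 or Day 1 replicate 3 the call on Ltf was lost.

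From Day 1 to Day 5 no step passed the test. Limma called 0 members from Day 1 to Day 3, where 2 had an unadjusted p under 0.05 and 11.3% of tested genes were called in either direction. It also called 0 from Day 3 to Day 5, where none had such a p and 3.2% of tested genes were called. At Day 5 the 10 members stood at 39.6 to 67.1% of their Day 0 means.

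**Figure D3:**
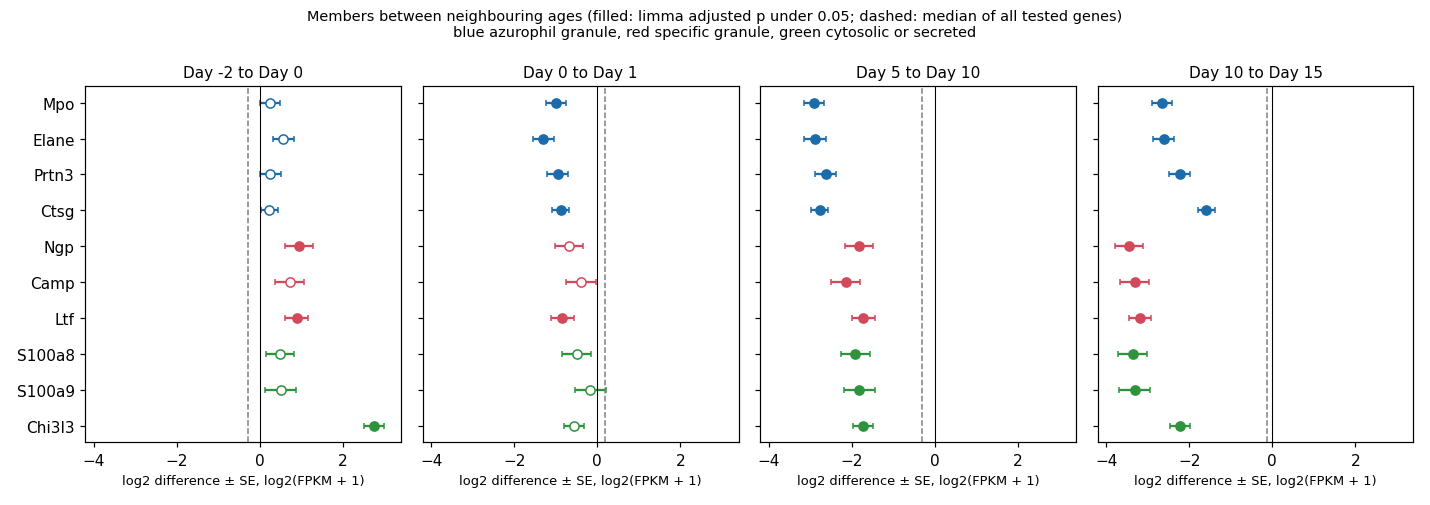
Log2 difference ± SE of each member on the log2(FPKM + 1) scale for 4 steps between neighbouring ages; filled points passed limma's adjusted p of 0.05, the solid line is 0 and the dashed line is the median of all tested genes. From Day 5 to Day 10 the azurophil genes are at -2.62 to -2.91 and the other members at -1.73 to -2.14, and from Day 10 to Day 15 the 2 ranges overlap. The difference between the roles was not tested.

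The largest falls on the log2 scale came from Day 5 to Day 15. From Day 5 to Day 10 all 10 members fell, where 34.4% of tested genes were lower and the median of all tested genes was -0.31. The azurophil genes fell by 2.62 to 2.91 on the log2 scale, with Mpo at -2.91 ± 0.24 (limma adjusted p = 2.81e-10) and Ctsg at -2.77 ± 0.20 (adjusted p = 3.18e-11). The other 6 fell by 1.73 to 2.14, with Ngp at -1.83 ± 0.33 (adjusted p = 9.58e-05) and Camp at -2.14 ± 0.35 (adjusted p = 2.45e-05). In age means, the members kept 12.2 to 31.4% of their Day 5 level, with a median of 14% over the azurophil and 29.8% over the specific granule genes. From Day 10 to Day 15 all 10 fell again, where 10.5% of tested genes were lower. Age means then kept 8.36 to 12.3% of their Day 10 level, with medians of 9.58% over the azurophil and 9.12% over the specific granule genes. Levels at Day 15 were near the pseudocount for the azurophil genes, which shortens their log2 differences in this step.

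Later steps were small in number. From Day 15 to Day 20 Ngp fell by 1.38 (SE 0.33, limma adjusted p = 0.0217) and S100a8 by 1.40 (SE 0.35, adjusted p = 0.0258) on the log2 scale, 2 members where 1.16% of tested genes were lower. From Day 20 to Day 25, across weaning, Ngp was the 1 member called (-1.16 ± 0.33, adjusted p = 0.029, 3.26% of genes lower), and S100a9 was at -1.17 ± 0.37 (adjusted p = 0.0524). The call at weaning was lost without Day 20 replicate 1, Day 20 replicate 2, Day 25 replicate 2 or Day 25 replicate 3, each of which gave 0 members. Limma called 0 members from Day 25 to Day 30, from Day 30 to Day 45 and from Day 45 to Day 60, where 0, 3 and 0 members had an unadjusted p under 0.05 and 1.64%, 1.03% and 0.233% of tested genes were called. Over the 11 steps 31 of 110 pairs of member and step were called, against 14.6% over all tested genes.

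The balance of early and late granule transcripts shifted over the first 10 days. The ratio of summed FPKM of the 4 azurophil genes to that of the 3 specific granule genes was 0.862, 0.741 and 0.659 in the mice of Day -2 and 0.526, 0.435 and 0.596 in those of Day 0. It was 0.372, 0.369 and 0.395 at Day 1, 0.523, 0.561 and 0.570 at Day 3 and 0.422, 0.435 and 0.388 at Day 5. At Day 10 it reached 0.199, 0.237 and 0.178. The mice of Day -2 all lay above those of every later age up to Day 15, and those of Day 10 lay below those of every earlier age. Day 3 lay above Days 1 and 5 without overlap. The ratio compares genes within a library, so scaling of the library does not move it. It is given as a description with no test, since its genes were chosen for their roles. The separation at Day -2 depends on which genes are summed. Elane over Ngp alone was 0.338 to 0.399 at Day -2 and 0.234 to 0.341 at Day 0, so these ages overlapped for that pair. At Day 10 the pair stood at 0.103 to 0.142, below every earlier mouse. After Day 20 the sums were too low, and Prtn3 too large a part of them, for the ratio to be read.

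**Figure D4:**
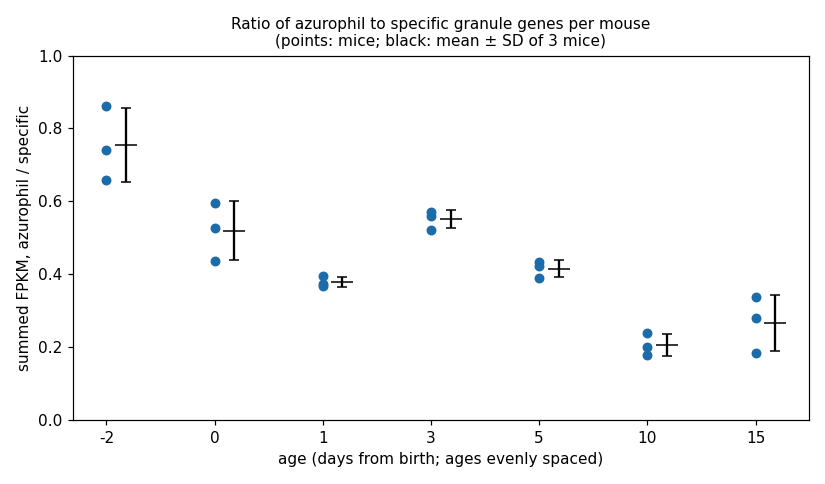
Summed FPKM of Mpo, Elane, Prtn3 and Ctsg divided by that of Ngp, Camp and Ltf in each mouse, on a linear axis from 0, against age in days from birth (ages evenly spaced); points are mice and black marks are the mean ± SD of 3 mice. The ratio is 0.754 ± 0.102 at Day -2 and drops to 0.379 ± 0.0146 by Day 1. It stands at 0.551 ± 0.0251 on Day 3 and at 0.205 ± 0.0302 on Day 10.

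The ratio of Prtn3 to Elane was higher by Day 20, and the age mean of Prtn3 did not fall with the other azurophil genes to Day 25. The ratio was 0.992, 0.731 and 1.16 at Day 15, 1.01, 1.89 and 1.86 at Day 20 and 2.62, 4.14 and 22.5 at Day 25, all at low values. Prtn3 was at 0.849, 0.747 and 0.665 FPKM at Day 20, 0.868, 1.24 and 2.35 FPKM at Day 25 and 1.94, 1.41 and 1.28 FPKM at Day 30. All 3 Day 25 mice lay above every Day 20 mouse, the closest at 0.868 against 0.849 FPKM. Elane, its neighbour, was at 0.331, 0.298 and 0.104 FPKM at Day 25 and 0.145, 0.201 and 0.371 FPKM at Day 30. Prtn3 was higher than at Day 60 by 1.06 ± 0.25 at Day 25 (limma adjusted p = 0.00746) and by 1.13 ± 0.25 at Day 30 (adjusted p = 0.00828) on the log2 scale, while its difference from Day 20 to Day 25 did not pass the test (0.46 ± 0.25, adjusted p = 0.342). An exon of Prtn3 overlaps the gene BC005764 on the opposite strand, and reads of the overlap cannot be told apart without strand. BC005764 had age means of 0.597, 0.380 and 0.431 FPKM at Days 20, 25 and 30, and the part of the overlap in the Prtn3 values was not tested.

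The order of the members by level shifted in part from age to age. At Day 0 it ran S100a8, S100a9, Ngp, Camp, Mpo, Elane, Ltf, Prtn3, Chi3l3 and Ctsg. Neighbours whose mice did not overlap at Day 0 were Ngp over Camp, Camp over Mpo, Ltf over Prtn3 and Prtn3 over Chi3l3, and the other neighbours overlapped. At Day -2 the mean of Mpo stood above that of Camp, though in 1 of 3 mice only, and Chi3l3 was last. At Day 5 the order had S100a8, S100a9, Ngp and Camp on top. S100a9 stood above S100a8 and Ltf above Elane at Day 1, Ctsg stood above Chi3l3 at Day 3, and at Day 10 Ltf stood above both Mpo and Elane. At Day 60 S100a9 and S100a8 led, followed by Ltf, whose mean there rests on replicate 1.

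The members often ranked the mice of an age alike. Day 3 replicate 1, Day 10 replicate 1 and Day 20 replicate 3 were the lowest of their age for all 10 members, and Day 15 replicate 1 was the highest of its age for all 10. Summed FPKM of all genes was also lowest of its age in Day 3 replicate 1 (414115) and Day 10 replicate 1 (386844). It was highest in Day 20 replicate 3 (407862) and lowest in Day 15 replicate 1 (376336). The share of all genes lowest or highest in these mice was not taken. The members follow each other, so these are not 10 separate results. At Day 10, where replicate 1 was at 301 FPKM over the members and the others at 680.3 and 690.4, Day 10 replicate 1 also held 71.4 FPKM of muscle markers, and its part in the low values was not tested. At Day 15 replicate 1 summed to 100.2 FPKM against 34.2 and 28.8 FPKM.

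Over the 12 age means of log2(FPKM + 1) the members followed each other, with a Pearson r between 0.9424 and 0.9993 over the 45 pairs (median 0.9834). The points are ages that share 1 steep fall, and this is a description. Among 11139 other tested genes, the most like Mpo was Sash3 (r = 0.9979), an adaptor of lymphocytes, and the most like Elane was Myo1f (r = 0.9984), a myosin of leukocytes. Ncf1, a subunit of the phagocyte NADPH oxidase, was among the 3 most like for both. The most like Ctsg was Ms4a3 (r = 0.9989), a granulocyte progenitor marker, followed by Fcnb (r = 0.9981), a ficolin of neutrophil granules. Ltf was most like the stefin genes Stfa2l1 and Stfa2 (r = 0.9984 for each) and BC100530 (r = 0.9964), and Prtn3 was most like Twf2 (r = 0.9971). Ngp, S100a8 and S100a9 were each most like Lass5 (r = 0.9948, 0.9954 and 0.9955), a ceramide synthase that peaked at 4.86 FPKM. Camp was most like Nfam1 (r = 0.9960) and Chi3l3 most like Hvcn1 (r = 0.9935), a proton channel of phagocytes.

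Other genes of neutrophil granules and mature neutrophils moved with the members. Their list, like those used below, was chosen with earlier results of these data known, so the counts are not separate evidence. Of 31 such genes tested, 30 were higher and 1 lower in Days -2 to 5 than in Days 25 to 60, with a median log2 difference of 2.99, where 70.2% of all tested genes were higher and their median was 0.54. Stfa2l1, a stefin (cysteine protease inhibitor) of myeloid cells, had age means of 157 ± 33.6 FPKM at Day -2, 336 ± 63.2 FPKM at Day 0 and 35.8 ± 15.8 FPKM at Day 10 (SD, n = 3). Lcn2, which binds bacterial siderophores, measured 185 ± 54.3, 381 ± 94.4 and 61.7 ± 22.3 FPKM at the same ages. Hp, haptoglobin, was the gene that was lower early. It encodes a plasma protein that hepatocytes also secrete, and it was at 116 FPKM at Day -2, 1542 FPKM at Day 0 and 1849 FPKM at Day 60.

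The same late genes were also tested across birth. From Day -2 to Day 0 18 of the 31 rose and 1 fell (median 0.45), where 13.1% of all tested genes were higher. From Day 0 to Day 1 16 fell and 1 rose (median -0.48), where 7.88% were lower. Retnlg, a resistin-like protein of mature neutrophils, was at 15.3 FPKM at Day -2, 104 FPKM at Day 0 and 26.1 FPKM at Day 1. It rose by 2.69 ± 0.23 on the log2 scale at birth (limma adjusted p = 1.55e-10), near the rise of Chi3l3, and it was named after its values were seen. Stfa2l1 rose by 1.10 ± 0.27 (adjusted p = 0.0015) and Lcn2 by 1.06 ± 0.27 on the log2 scale (adjusted p = 0.0016). The 18 rises became 23 with a common upper quartile (20% of all tested genes higher) and 15 with the globin-free sum (7.39% higher). They became 22 without the most muscle-rich and pancreas-rich libraries (12% higher), and between 0 and 2 of the 31 fell. Of the 7 other early granule and protease-handling genes tested, 2 rose at birth, Cd63 and Slpi (the latter named after its values were seen), and 1 fell, Ctsc. Ms4a3, at 26.1 FPKM on both Day -2 and Day 0, did not pass the test at birth, as the 4 azurophil members did not. Srgn, the proteoglycan core of granules, was at 38.4 and 37.3 FPKM. From Day 5 to Day 10 27 of the 31 late genes fell and none rose, where 34.4% of all tested genes were lower. With a common upper quartile 19 fell, where 8.39% of genes were lower.

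Regulators of granulocyte formation were tested in the same way. Of 16 tested, 13 were higher and 3 lower in Days -2 to 5 than in Days 25 to 60, a share of higher genes near the 70.2% of all tested genes. Sfpi1 encodes PU.1, a factor of myeloid lineages, and had age means of 22.5 ± 6.38 FPKM at Day -2, 28.5 ± 0.759 FPKM at Day 0, 11.6 ± 2.46 FPKM at Day 10 and 3.07 ± 0.297 FPKM at Day 60. Csf1r, the receptor that drives macrophages, was at 31.6, 43.2, 45.5 and 15.2 FPKM at these ages. The 3 lower genes were Cebpa, Cebpb and Cxcl12, of which Cebpa is also a hepatocyte factor and Cxcl12 a chemokine of stromal cells, and 2 of the 3 stayed called with the globin-free sum. Cebpe, the C/EBP factor of late granulopoiesis, and Gfi1, a repressor in granulocyte progenitors, were named after their values were seen. Cebpe was at 9.91 FPKM at Day -2, 13.2 FPKM at Day 0, 1.91 FPKM at Day 10 and 0.226 FPKM at Day 15, and Gfi1 at 1.19, 1.03, 0.113 and 0.0400 FPKM. Both fell from Day 5 to Day 10, Cebpe by 1.41 ± 0.22 (limma adjusted p = 1.75e-05) and Gfi1 by 0.49 ± 0.08 (adjusted p = 2.46e-05) on the log2 scale. Csf3, the gene of the growth factor G-CSF and also named after its values were seen, was listed at 0 at 10 of the 12 ages and reached 0.0034 FPKM at most.

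**Figure D5:**
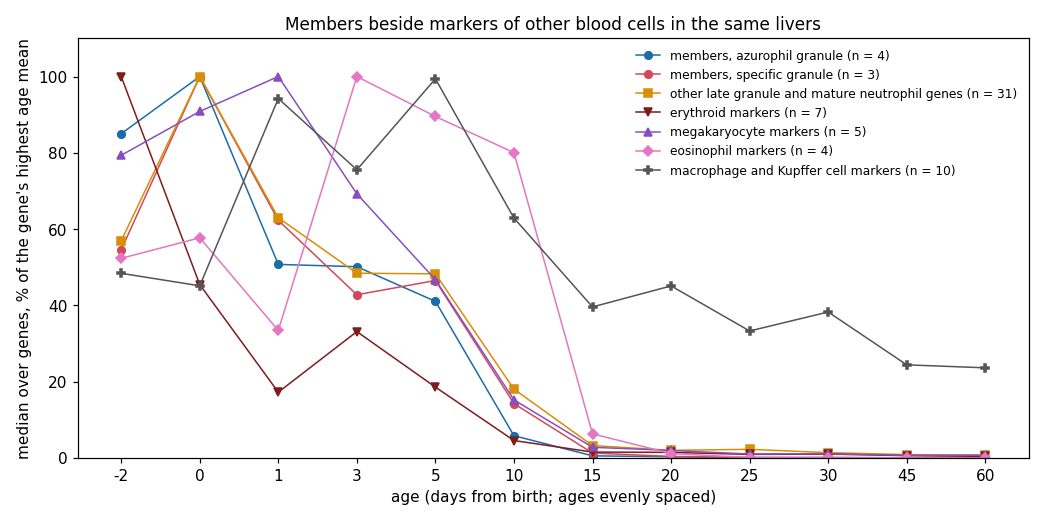
Median over the genes of each list of the age mean as a percentage of the gene's highest age mean, against age in days from birth (ages evenly spaced); n is the number of tested genes of a list. Specific granule members and other late neutrophil genes peak at Day 0, erythroid markers at Day -2, megakaryocyte markers at Day 1 and eosinophil markers at Day 3, and macrophage markers keep 23.6% of their peak at Day 60.

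Markers of other blood cells moved with the members in part, and their part in the members' values was not tested. All 7 erythroid markers were highest at Day -2, as were 41.1% of tested genes, and fell at birth, where 41.4% were lower. All 10 members were highest at Day 0 in FPKM as deposited, as were 5.79% of tested genes. Under the globin-free sum this did not hold for Mpo, Prtn3 and Ctsg. Of the 5 B lineage markers 4 were highest at Day 0 and 3 rose at birth, where 13.1% of all tested genes were higher and 41.4% lower. The median of these markers was 48.9% of the highest age at Day -2, near the 54.5% of the specific granule members. Cd79b, a subunit of the B cell receptor complex, was at 10.1 ± 2.11 FPKM at Day -2 and 27.4 ± 4.20 FPKM at Day 0 and was highest at Day 1. From Day 5 to Day 10 1 B lineage marker fell and 1 rose, while all 10 members fell. In that step 34.4% of all tested genes were lower and 1.88% higher. All 5 megakaryocyte markers were highest at Day 1, as were 10.9% of tested genes. All 5 fell from Day 5 to Day 10 as the members did. None of the 4 eosinophil markers was called from Day 5 to Day 10, and Prg2, the eosinophil major basic protein, was at 115 ± 54.9 FPKM at Day 5 and 93.7 ± 45.0 FPKM at Day 10. None of the 10 macrophage and Kupffer cell markers was called in that step by limma, 0 also under every alternative scaling, filter and pseudocount. Their summed level was 360 to 419 FPKM in the mice of Day 5 and 231 to 345 FPKM in those of Day 10. Clec4f, which marks Kupffer cells, was at 32.6 FPKM at Day 5 and 32.1 FPKM at Day 10. Of the macrophage list 8 were higher and 2, Clec4f and Vsig4, lower in Days -2 to 5 than in Days 25 to 60, where 70.2% of all tested genes were higher. Of the 3 monocyte markers tested, 1 was highest at Day -2, 1 at Day 0 and 1 at Day 3. Their median was 74.4% of the highest age at Day -2, 69.1% at Day 0 and 11.6% at Day 10. Ly6c2, a marker of monocytes that neutrophils also express at a lower level, was at 44.7 FPKM at Day -2, 90.0 FPKM at Day 0 and 10.5 FPKM at Day 10.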

How the data were processed

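RNA was sequenced from the livers of 36 male C57BL/6 mice (C57BL/6J in the study's methods), 3 at each of 12 ages, after poly-A selection with a kit that does not keep strand. The authors aligned the reads to mm9 with TopHat 1.2.0 and deposited FPKM values per gene from Cufflinks 1.0.3 with Ensembl 65 annotation. Groups and replicates were taken from the labels, and no column was left unassigned. Each value was analysed as log2(FPKM + 1) for the 11149 of 21889 genes with an age mean of at least 1 FPKM in 1 age. A mean per age was fitted with limma 3.58.1 (R 4.3.3, mean-variance trend), with Benjamini-Hochberg adjustment over all tested genes and a threshold of 0.05, and the script was first tested on simulated data. Python 3.11.15, pandas 2.3.3, numpy 2.4.6 and matplotlib 3.10.9 were used for the rest. Library depth was estimated from the steps of low FPKM values at an assumed fragment length of 160 bases, at 81.3 to 102 (in units of 1000000 fragments) per library. Values near 1 fragment carry counting error.

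The members and the gene lists were chosen with earlier results of these data known. The genes named are the members, up to 4 genes of each list with the highest age mean and those listed genes that moved the opposite way, and the 3 genes most correlated with each member, and any other is said to be named after its values were seen, except genes that overlap a member. PU.1 and Prss57 were looked up under the older symbols Sfpi1 and Prssl1. Promoter windows of 250 bases came from RefSeq (GRCm38.p6) and were matched for all 10 members. Results were recomputed with 0.1 as pseudocount, without a filter, with a filter at 5 FPKM, at a common upper quartile, as TPM, with a replicate block, with no mean-variance trend and without each mouse in turn. A common sum without globin genes, and leaving out the libraries richest in muscle and in pancreas markers together, were chosen after seeing the data.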

Additional observations from a re-analysis of the deposited data

How the results depend on the processing

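The 10 members passed the test under all alternatives from Day 5 to Day 10, from Day 10 to Day 15, at Day -2 against Day 60 and in the comparisons of age groups. The 75 pairs of member and age that differed from Day 60 ranged from 74 to 87 (73 to 76 leaving out 1 mouse), and the 31 pairs of member and step from 29 to 36 (29 to 39 leaving out 1 mouse). The birth step gave 3 members, and 1 with a pseudocount of 0.1, 5 with a common upper quartile, 1 with the globin-free sum, and 1 to 5 leaving out 1 mouse. Under the globin-free sum Mpo (-0.22), Prtn3 (-0.20) and Ctsg (-0.22) turned to negative log2 differences from Day -2 to Day 0, none of them called. From Day 0 to Day 1 the 5 members became 3 with a pseudocount of 0.1 and 4 to 6 leaving out 1 mouse, and S100a9 ranged from -0.39 (without Day 0 replicate 3) to 0.0031 (without Day 0 replicate 2) on the log2 scale. From Day 20 to Day 25 the 1 member became 5 with a pseudocount of 0.1, 0 without a filter (limma, 4 at an unadjusted p under 0.05), 2 with a filter at 5 FPKM, 2 with a common upper quartile, 4 as TPM and 0 to 2 leaving out 1 mouse. The cause of these changes was not tested. Mice with the same replicate number did not deviate together throughout (correlations -0.68 to 0.829, median 0.126, 104 of 198 above 0.1, against a median of -0.048 and 147 of 396 for different numbers), so mice of the same number were slightly more alike but were not taken as pairs, and with a replicate block the pairs of member and step were 32 and the pairs with Day 60 were 75, with no other member count changed. Values below about 0.1 FPKM rest on few fragments.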

Other observations

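Cebpe, named after its values were seen, had a late course unlike that of the members. Its age means were 0.226 FPKM at Day 15, 0.231 FPKM at Day 20, 0.696 FPKM at Day 25, 0.909 FPKM at Day 30, 1.47 FPKM at Day 45 and 2.07 FPKM at Day 60. It was lower in Days 10 to 20 than in Days 25 to 60 by 0.45 ± 0.12 (SE) on the log2 scale (limma adjusted p = 0.00235), while all 10 members were higher in Days 10 to 20.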
